A study of Mus musculus with 6 samples.

Results

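The genes described here are the ligands and receptors of the vascular endothelial growth factor (VEGF) and angiopoietin systems: the ligand genes Vegfa, Vegfb, Vegfc, Angpt1 and Angpt2 and the receptor genes Flt1, Kdr, Nrp1, Nrp2 and Tek. They are defined by symbol, and all 10 were found among the 36889 gene identifiers of the deposited tables. Their transcripts were split by the authors' annotation into 213 exonic parts, of 368092 in all. An exonic part is a stretch of exon between neighbouring annotated exon edges.

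The series sequenced polyadenylated RNA from 3 libraries labelled CD2BP2 knockout (KO) and 3 labelled wild type control (WT), all given as podocytes on a C57BL/6 background. CD2BP2 is a protein of the U5 small nuclear ribonucleoprotein of the spliceosome. The labels of all 6 libraries, KO and WT alike, give a loxP site after exon 3 of the 7 exons of the gene, and the second loxP site is given with no exon. The labels' treatment text describes bone marrow macrophages of CD2BP2flox/flox MxCre+ mice and littermates given poly(I:C), which goes against the podocyte source, and no Cre driver for podocytes is named there. They give no age or sex for the podocyte samples, and no label ties a library to an animal of its own, so p-values cover the spread between libraries alone, and that may be technical.

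Podocytes are the epithelial cells that cover the outside of glomerular capillaries. Textbook accounts name them as the main source of VEGF-A in the glomerulus, where it acts on the endothelium through KDR (VEGFR2), the main signalling receptor. FLT1 (VEGFR1) binds VEGF-A and VEGF-B tightly and signals weakly, and its soluble form, which lacks the membrane anchor, traps ligand. Neuropilins are co-receptors, and angiopoietins act on TEK (TIE2), with ANGPT1 as an agonist and ANGPT2 as a context-dependent antagonist. VEGF-A is made in several lengths by splicing. The longest common form holds the segments of exons 6 and 7, a middle form holds exon 7 without exon 6, and the shortest lacks both. Both exons encode stretches that bind heparan sulphate in the extracellular matrix.

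The sequences of the alternative Vegfa exons 6 and 7, and of exon 5 before them, are shown because the clearest difference in part usage fell on exon 6. They are the GENCODE M21 exons on GRCm38, minus strand of chromosome 17, and capitals mark bases of codons for lysine or arginine, the basic residues. Exon 5 lies at chr17:46024065-46024094, exon 6 at chr17:46022277-46022348 and exon 7 at chr17:46020991-46021122.
Vegfa exon 5: AccaAAGAAAgacAGAacaAAGccagaaAA
Vegfa exon 6: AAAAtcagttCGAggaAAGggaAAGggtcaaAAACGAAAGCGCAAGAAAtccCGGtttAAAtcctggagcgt
Vegfa exon 7: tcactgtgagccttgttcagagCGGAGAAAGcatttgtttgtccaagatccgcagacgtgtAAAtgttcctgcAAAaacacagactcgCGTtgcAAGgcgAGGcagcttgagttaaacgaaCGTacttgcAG
Lysine or arginine took 5 of 10 codons in exon 5, 12 of 24 in exon 6 and 10 of 44 in exon 7, with a codon that is split by a splice junction counted in the exon that holds its first base.

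The soluble and membrane ends of Flt1 are shown because they separate the forms. Exon 13 either reads on into intron 13, which ends the soluble form, or is spliced to exon 14. In both lines the last 15 bases of exon 13 are in lower case, and capitals mark what follows: 95 bases of intron 13 up to and including the stop codon (chr5:147639130-147639239 with the exon 13 bases) or the first 45 bases of exon 14 (chr5:147634479-147634523), both GRCm38, minus strand.
Flt1 soluble end: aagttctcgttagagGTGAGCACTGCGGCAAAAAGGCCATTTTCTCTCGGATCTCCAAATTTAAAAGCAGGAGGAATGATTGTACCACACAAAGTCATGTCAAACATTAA
Flt1 membrane form: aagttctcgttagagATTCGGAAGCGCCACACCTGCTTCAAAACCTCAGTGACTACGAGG
The soluble end is that of ENSMUST00000110529 and the membrane form that of ENSMUST00000031653.

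Total counts over exonic parts were 214948912 to 255554573 in KO libraries and 186022084 to 231312370 in WT libraries, and levels are given as CPM, which are counts scaled to the library total, after TMM scaling. Cd2bp2 itself stood at 47.3 to 51.0 CPM in KO, against 60.8 to 61.8 CPM in WT (log2 fold change -0.32, edgeR adjusted p = 0.0297), so the transcript was lower in the libraries labelled KO and still present. The podocyte label was checked against 20 marker genes, all detected: their summed level was 25821 to 27809 CPM in KO and 28218 to 31668 CPM in WT, with no overlap. Summed levels of 18 endothelial markers were 8008 to 8423 CPM in KO and 8281 to 9469 CPM in WT, so RNA of endothelial cells was present in every library. The 13 myeloid markers summed to 214.0 to 235 CPM in KO and 110 to 142 CPM in WT, and the 14 markers of loop, distal tubule and collecting duct to 274 to 1454 CPM in KO, highest in KO2, and 185 to 343 CPM in WT. None of these markers was at 0 in all libraries. Fewer cells of a type and less RNA per cell cannot be told apart in such bulk samples. Across all genes 666 of 19742 tested passed (319 higher and 347 lower in KO), which is 3.37%, with 1.62% passing as higher and 1.76% as lower in KO. With the podocyte marker sum as library size 846 were higher and 92 lower, and with the endothelial sum 286 and 68. These scalings moved the median log2 fold change of all genes to 0.19 and 0.11.

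Of the 10 ligand and receptor genes, 1 passed the test in KO against WT, the ligand gene Vegfa, and none of the 5 receptor genes did, by the quasi-likelihood test of edgeR, Benjamini-Hochberg adjusted over all genes. All 10 passed the filter on low counts, and 2 had an unadjusted p under 0.05 (Vegfa and Vegfb), a share near the 22.6% of all tested genes with such a p. Their median log2 fold change was -0.02, with 0.15 for the ligands and -0.06 for the receptors, against 0.01 over all genes tested. The KO and WT libraries did not overlap for 2 of the 10, Vegfa and Vegfb, while 28.9% of all tested genes had groups that did not overlap.

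**Figure D1:**
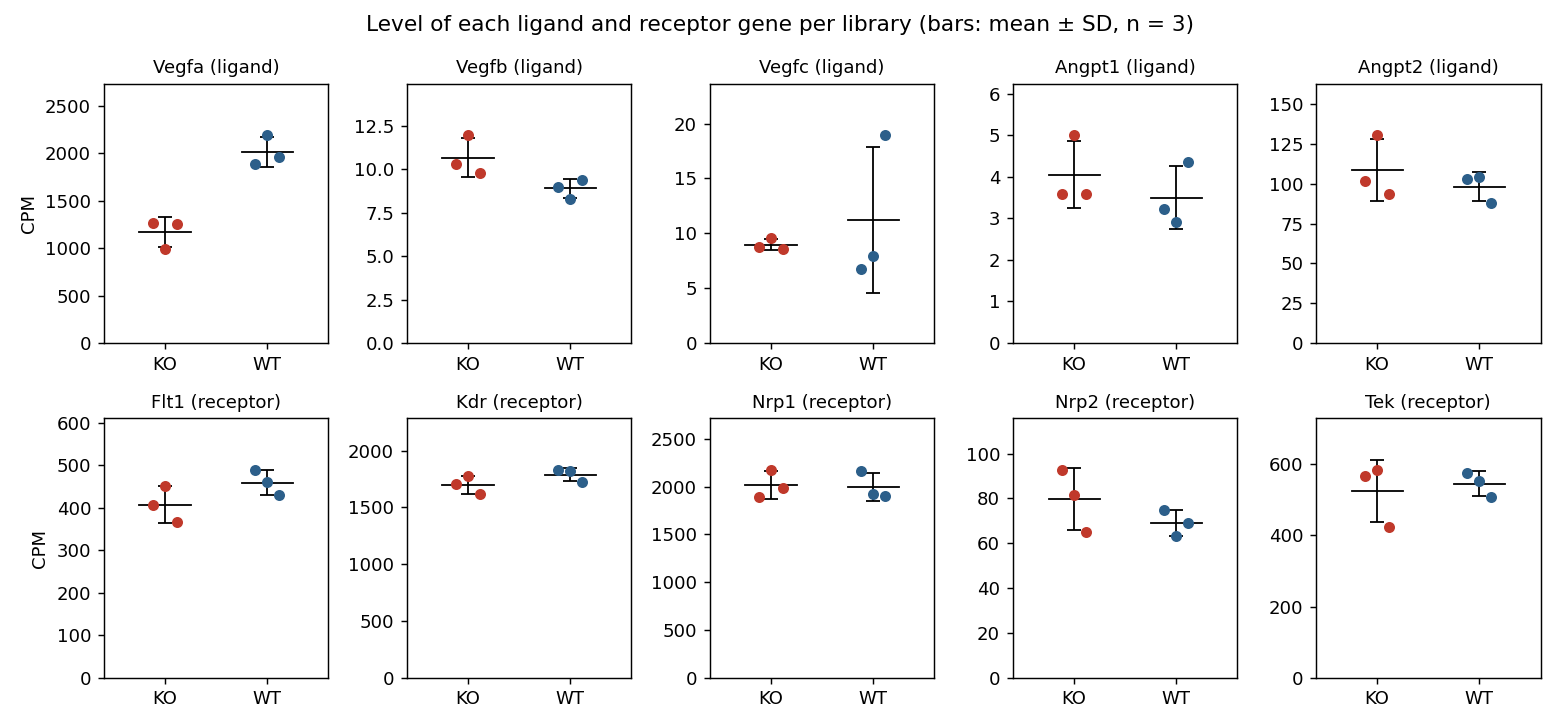
Levels in CPM (vertical axes, each from 0) of the 5 ligand genes (top) and 5 receptor genes (bottom) in each KO library (red, left) and WT library (blue, right); bars give mean ± SD, n = 3. The KO points lie below the WT points for Vegfa and above them for Vegfb, and overlap them for the other genes.

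Vegfa (ENSMUSG00000023951; chr17:46153942-46169326, minus strand, NCBIM37 as for all genes here; 28 parts) stood at 1268, 992 and 1254 CPM in KO1, KO2 and KO3, against 1885, 2188 and 1958 CPM in WT1, WT2 and WT3. Every KO library was below every WT library, with KO2 the lowest. The mean was 1171 ± 156 CPM in KO and 2010 ± 158 CPM in WT (SD, n = 3 each), so the KO mean was 58.3% of the WT mean. The log2 fold change was -0.78, its SE 0.11 and the edgeR adjusted p 0.0301. The call was lost in each fit that left out 1 library, whether KO1, KO2, KO3, WT1, WT2 or WT3, where the log2 fold change ran from -0.85 to -0.68 and the edgeR adjusted p from 0.0519 to 0.125. The podocyte marker sum in KO was 87.9% of that in WT on average, and Vegfa still passed when that sum served as library size, at -0.60 (edgeR adjusted p = 0.0338). With the endothelial sum it was -0.67 and did not pass (edgeR adjusted p = 0.0600). In that sum Eng and Egfl7 were counted under identifiers that join them with other genes. Eng stood at 1587 of the mean 8201 CPM in KO and at 1488 of 8820 CPM in WT. Its log2 fold change was 0.09. The marker gene Podxl alone made up 9477 of the mean 26588 CPM of the podocyte sum in KO, and 10192 of 30239 CPM in WT. The log2 fold change of Podxl was -0.10, so the podocyte scaling rests in large part on a gene that differed little. KO2, lowest in Vegfa, was also highest in distal tubule markers. KO3, with Vegfa at 1254 CPM, had 274 CPM in the sum of those markers, inside their WT range of 185 to 343 CPM. The part of tissue makeup in the result was not tested beyond these scalings.

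Vegfb (ENSMUSG00000024962; chr19:7056963-7062141, minus strand), which encodes a ligand of FLT1 and neuropilin-1, stood at 10.3, 12.0 and 9.81 CPM in the KO libraries, against 9.01, 8.31 and 9.40 CPM in the WT libraries. All KO values were above all WT values, by little. The log2 fold change was 0.26 with an SE of 0.10, and did not pass (edgeR adjusted p = 0.202). Without KO2 it was 0.17. Vegfc (ENSMUSG00000031520; chr8:55162886-55271808, plus strand), the ligand best known from lymphatic vessels, stood at 8.74, 9.57 and 8.59 CPM in KO, against 6.76, 7.96 and 18.9 CPM in WT. WT3 stood far above the other libraries, and the fitted log2 fold change of -0.32 (SE 0.38, edgeR adjusted p = 0.661) became 0.28 without WT3 (edgeR adjusted p = 0.229).

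Angpt1 (ENSMUSG00000022309; chr15:42256273-42508523, minus strand), which encodes the TEK agonist, was the least abundant of the 10 genes, also per kilobase, at 3.58, 4.99 and 3.58 CPM in KO, against 3.22, 2.90 and 4.36 CPM in WT. The groups overlapped (log2 fold change 0.21, SE 0.21, edgeR adjusted p = 0.606). Without KO2 that value was 0.02, without WT2 0.09 and without WT3 0.40. Angpt2 (ENSMUSG00000031465; chr8:18690263-18741562, minus strand) stood at 102, 130 and 93.9 CPM in KO, against 103, 104 and 87.9 CPM in WT, where KO2 alone lay above the WT range. Its log2 fold change was 0.15 with an SE of 0.13 (edgeR adjusted p = 0.568), and it was -0.02 without KO2, 0.07 without WT3 and 0.24 without KO3.

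**Figure D2:**
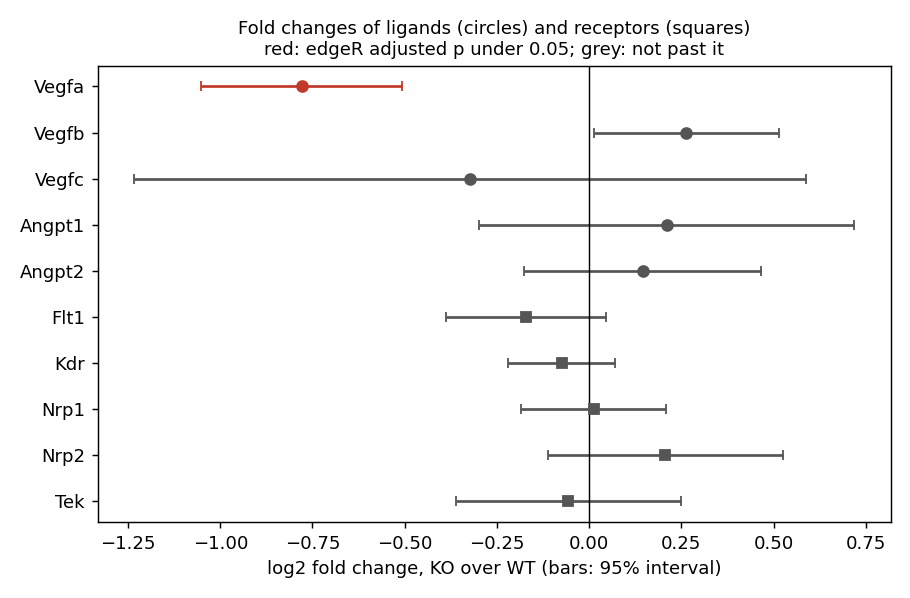
Log2 fold change of KO over WT (horizontal axis) of the 5 ligand genes (circles) and 5 receptor genes (squares), with 95% intervals from the edgeR fit. Vegfa, at -0.78, is the only gene past an adjusted p of 0.05 (red); the interval of Vegfc is the widest.

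Among the receptors, Kdr (ENSMUSG00000062960; chr5:76328852-76374483, minus strand), the main signalling receptor for VEGF-A, stood at 1705, 1778 and 1619 CPM in KO, against 1828, 1818 and 1725 CPM in WT. The ranges overlapped, and the log2 fold change of -0.07 had a 95% interval of -0.22 to 0.07 (edgeR adjusted p = 0.518). It was -0.12 without KO2 and -0.04 without KO3. Flt1 (ENSMUSG00000029648; chr5:148373180-148537587, minus strand) stood at 406, 452 and 366 CPM in KO, against 488, 460 and 430 CPM in WT. KO2 lay inside the WT range, and the log2 fold change was -0.17 with an interval of -0.39 to 0.04 (edgeR adjusted p = 0.313). That value was -0.26 without KO2 and -0.10 without KO3, and -0.02 with the longest exonic part alone. Flt1 and Kdr turned to 0.02 and 0.11 under podocyte marker scaling, and Kdr to 0.02 under endothelial scaling, all short of the threshold.

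Nrp1 (ENSMUSG00000025810; chr8:130882973-131029362, plus strand), the neuropilin co-receptor, was counted together with the microRNA gene that overlaps it, under a joint identifier of both. It stood at 1891, 2173 and 1986 CPM in KO, against 2168, 1929 and 1901 CPM in WT, with a log2 fold change of 0.01 and an interval of -0.18 to 0.21 (edgeR adjusted p = 0.947). Nrp2 (ENSMUSG00000025969; chr1:62749859-62865269, plus strand), the co-receptor for VEGF-C and semaphorins, stood at 92.6, 81.4 and 65.2 CPM in KO, against 75.0, 63.2 and 69.1 CPM in WT. KO1 and KO2 lay above the WT range and KO3 inside it (log2 fold change 0.21, SE 0.13, edgeR adjusted p = 0.410). Leaving out KO1 gave 0.08 and leaving out KO3 gave 0.33. Tek (ENSMUSG00000006386; chr4:94405980-94541667, plus strand), the angiopoietin receptor, stood at 566, 584 and 424 CPM in KO, against 577, 553 and 507 CPM in WT, where KO3 was the lowest of all (log2 fold change -0.06, SE 0.13, edgeR adjusted p = 0.834). It ran from -0.15 without KO2 to 0.07 without KO3. Intervals of 3 against 3 libraries leave room for receptor changes of the sizes they span.

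Levels were set against each other per kilobase of annotated exon, as CPM per kb. A read that spans several short parts is counted in each, so this measure reads higher for genes cut into many short parts, such as Vegfa. The order of genes with similar values is therefore approximate. In KO libraries the order was Nrp1 (341 ± 24.3), Vegfa (273 ± 36.3), Kdr (234 ± 10.97), Tek (111 ± 18.5), Flt1 (35.2 ± 3.72), Angpt2 (29.5 ± 5.21), Nrp2 (8.38 ± 1.45), Vegfb (6.66 ± 0.702), Vegfc (4.73 ± 0.277) and Angpt1 (0.952 ± 0.191), in CPM per kb (SD, n = 3). Neighbours that overlapped between libraries there were Vegfa with Kdr, Flt1 with Angpt2 and Nrp2 with Vegfb. In WT libraries Vegfa led with 468 ± 36.9 CPM per kb, above Nrp1 with 338 ± 24.9 and Kdr with 246 ± 7.82 (SD, n = 3), with no overlap between these genes. Nrp2 overlapped Vegfc and Vegfc overlapped Vegfb in WT, and the other neighbours did not.

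The ratio of the VEGF-A ligand gene to its receptors was lower in each KO library than in any WT library. Vegfa over Kdr, as a ratio of CPM per kb, was 1.26, 0.946 and 1.31 in KO, against 1.75, 2.04 and 1.92 in WT. For Vegfa over Flt1 the ratios were 8.44, 5.92 and 9.25 in KO, against 10.4, 12.8 and 12.3 in WT. Vegfa over Nrp1 gave 0.923, 0.628 and 0.869 in KO, against 1.20, 1.56 and 1.42 in WT. Which gene of this pair had more transcripts cannot be read from the ratio, since reads across several short parts are counted in each. These ratios share the Vegfa values, so they are a description of the same difference. Angpt2 over Angpt1 overlapped between groups, at 32.7, 30.1 and 30.3 in KO, against 36.8, 41.4 and 23.2 in WT. Angpt2 over Tek was 0.229, 0.285 and 0.283 in KO, against 0.228, 0.241 and 0.221 in WT, with KO1 inside the WT range.

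**Figure D3:**
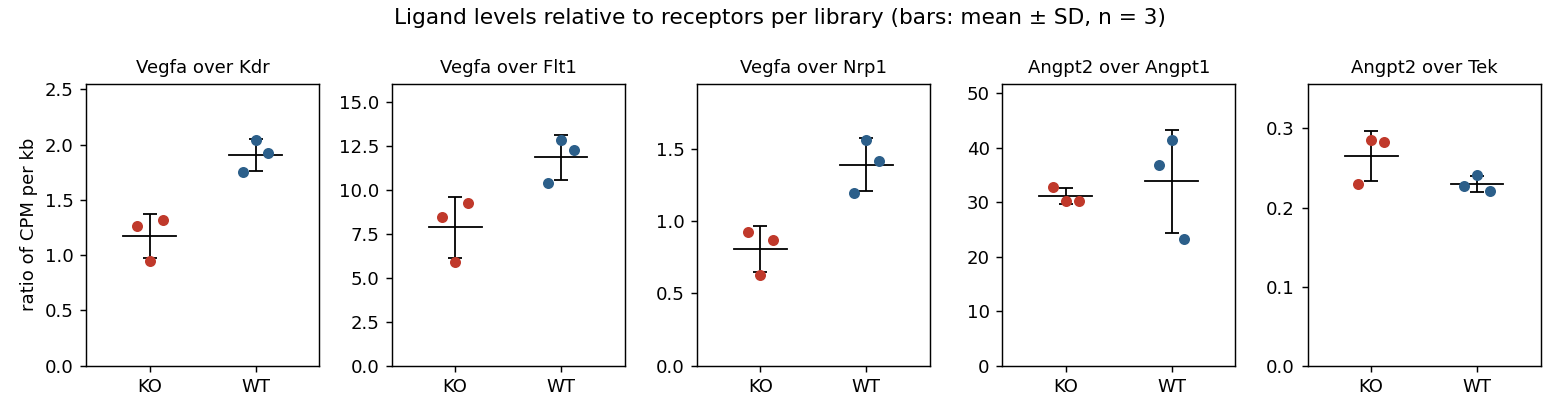
Ratio of CPM per kb (vertical axes, each from 0) between ligand and receptor genes, and between Angpt2 and Angpt1, in each KO library (red, left) and WT library (blue, right); bars give mean ± SD, n = 3. Vegfa over Kdr lies at 0.946 to 1.31 in KO and at 1.75 to 2.04 in WT, and the angiopoietin ratios overlap.

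Usage of single exonic parts relative to the rest of their gene was tested with edgeR's diffSpliceDGE over 236061 parts, of which 148, or 0.0627%, passed an adjusted p of 0.05. Of the 213 ligand and receptor parts 206 were tested, and 1 passed, a stretch of Vegfa exon 6. Another 2, both of Vegfa, had an unadjusted p under 0.05 without passing, as 1.16% of all tested parts had such a p, and none of the other 9 genes had such a part. In those 9 genes the part with the smallest p had an unadjusted p of 0.226 (Kdr) to 0.938 (Vegfc), with usage differences of -0.30 to 0.38 on the log2 scale.

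Vegfa exon 6 is covered by 2 parts, a 54-base part at chr17:46159244-46159297 and, after it in the transcript, an 18-base part at chr17:46159226-46159243 (NCBIM37), both within the coding sequence printed above. The 18-base part had 4175, 2763 and 3468 counts in KO, against 6904, 7735 and 9231 counts in WT. Its usage fell by 0.70 on the log2 scale relative to the rest of Vegfa (diffSpliceDGE adjusted p = 0.0467). The 54-base part had 5544, 3725 and 4617 counts in KO, against 9100, 10230 and 12126 in WT. That part had a usage difference of -0.69 on the log2 scale and missed the threshold (diffSpliceDGE adjusted p = 0.0676). The call on the 18-base part held without KO2 (adjusted p = 0.00116), and was lost in the fits that left out KO1, KO3, WT1, WT2 or WT3, where the highest adjusted p was 0.619.

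Counts in exon 6 as a whole took 2.95%, 2.98% and 2.68% of Vegfa part counts in KO, against 4.57%, 4.56% and 4.79% in WT. The KO and WT libraries were well apart, with means of 2.87 ± 0.163% and 4.64 ± 0.130% (SD, n = 3 each; exact two-sided permutation p = 0.1, the smallest that 3 against 3 libraries can give). On the CPM scale exon 6 stood at 33.6 ± 3.96 in KO and 93.2 ± 6.82 in WT (SD, n = 3 each), so KO was at 36.0% of WT, while the rest of the gene was at 59.3%.

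The neighbouring exons of Vegfa gave a yardstick within each library. The ratio of counts in the 54-base part to those in exon 5 was 0.378, 0.366 and 0.334 in KO, against 0.578, 0.584 and 0.600 in WT. For exon 7 over exon 5 the ratio was 1.57, 1.52 and 1.55 in KO, against 1.61, 1.59 and 1.64 in WT, so it was lower in every KO library too, by a far smaller margin. Exon 7 took 7.01%, 7.10% and 7.13% of Vegfa counts in KO, against 7.25%, 7.07% and 7.41% in WT, and its usage did not pass (-0.03 on the log2 scale, diffSpliceDGE unadjusted p = 0.845). A read of about 101 bases can cover several short parts and was counted in each, so these ratios are not the fraction of transcripts that hold the exon.

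**Figure D4:**
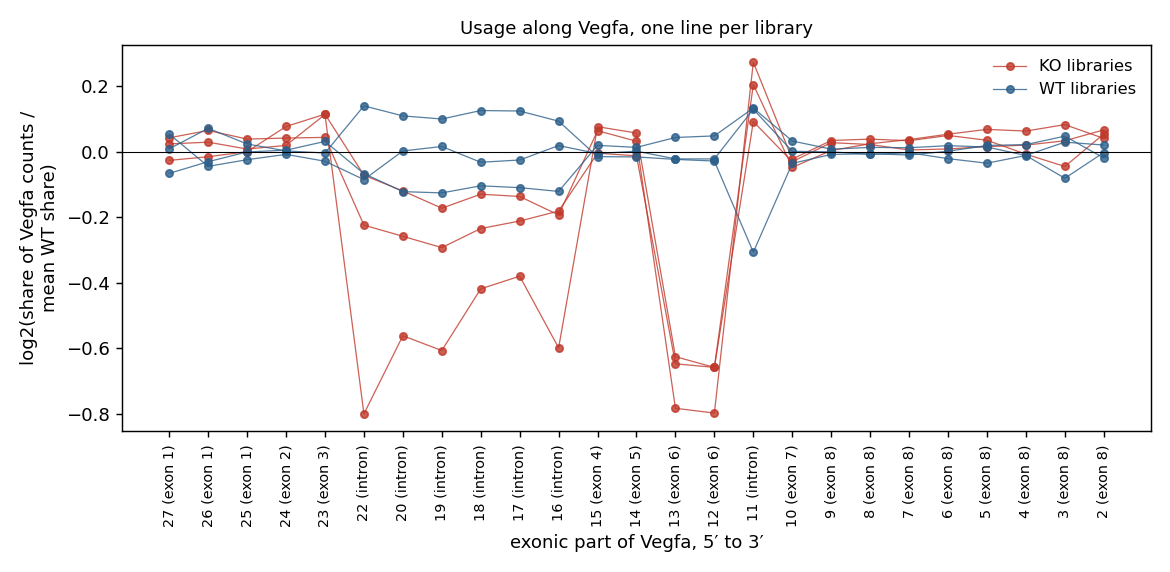
Log2 of each part's share of Vegfa counts over the mean share in WT libraries (vertical axis), for the Vegfa parts with a mean of at least 200 counts in transcript order (horizontal axis); each line is 1 library, KO in red and WT in blue. The 3 KO lines drop together at both exon 6 parts and lie near 0 at exons 1 to 5, 7 and 8, while intron 3 parts differ among KO libraries.

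The parts that the annotation places in Vegfa intron 3 belong to transcripts that keep stretches of that intron. Together they took 2.57%, 2.00% and 2.67% of Vegfa counts in KO, against 2.99%, 3.21% and 2.76% in WT. All KO shares were lower than all WT shares, and KO2 was the furthest (exact two-sided permutation p = 0.1). The lowest unadjusted p there was 0.0437, for the 38-base part at chr17:46162145-46162182 (NCBIM37), with a usage difference of -0.33 on the log2 scale that did not pass. The 250-base part of intron 6 had a usage difference of 0.21, with an unadjusted p of 0.194.

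The soluble form of Flt1 was read from the part at chr5:148446735-148450800 (NCBIM37, 4066 bases), the read-through of intron 13 whose first coding bases are printed above. It held 10943, 10555 and 9354 counts in KO, against 8818, 7430 and 10016 in WT. As a share of Flt1 part counts this was 10.4%, 10.6% and 10.7% in KO, against 9.72%, 8.97% and 10.2% in WT. Each KO share was above each WT share, by 0.922 percentage points on average (exact two-sided permutation p = 0.1), and the usage difference of 0.13 on the log2 scale did not pass (diffSpliceDGE unadjusted p = 0.306). The difference in share was 0.588 points without WT2 and 1.22 points without WT3. Per base, the part stood at 12.8%, 12.7% and 12.6% of exon 13 in KO, against 12.1%, 11.2% and 12.3% in WT.

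The membrane form was followed through the 3′ parts, which encode the rest of the extracellular domain, the membrane anchor and the kinase or lie downstream of them. They stood at 54.5%, 53.5% and 52.4% of exon 13 per base in KO, against 57.0%, 56.6% and 54.0% in WT, with KO1 inside the WT range. On the CPM scale the soluble part stood at 43.1 ± 4.61 in KO and 44.2 ± 3.11 in WT (SD, n = 3 each), which is 97.4% of WT, and the rest of Flt1 at 87.8%. Within intron 13 a long soluble end and unspliced RNA give the same reads.

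Soluble forms of the other receptors could be followed only as far as the annotation marks them. Kdr had no part that marks its known soluble form, and its only intronic parts, in introns 10 and 11, held 165, 113 and 194 counts in KO and 117, 151 and 224 counts in WT. They stood at 0.126%, 0.102% and 0.154% of exon 11 per base in KO, against 0.120%, 0.156% and 0.186% in WT, so intron reads were rare in this gene. Nrp1 had a single protein-coding transcript in the annotation and no part for a soluble neuropilin, and its part with the lowest usage p had a difference of -0.10 on the log2 scale (unadjusted p = 0.427).

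Nrp2 has long forms that differ in the cytoplasmic tail, known as a and b. The last part of the b form over that of the a form, in counts per base, was 0.308, 0.313 and 0.325 in KO, against 0.281, 0.296 and 0.271 in WT. The KO ratios were above the WT ratios, and the usage of the b part did not pass (0.14 on the log2 scale, diffSpliceDGE unadjusted p = 0.443). As a share of Nrp2 counts the b part took 3.85%, 4.04% and 4.31% in KO, against 3.71%, 3.87% and 3.43% in WT. These shares overlapped between groups (exact two-sided permutation p = 0.2). The Tek cassette exon of 153 bases took 3.00%, 2.90% and 2.89% of Tek counts in KO, against 2.95%, 2.79% and 2.92% in WT, and the groups overlapped. The Vegfb part that only its longer form holds took 5.35%, 4.45% and 5.48% of Vegfb counts in KO, against 5.32%, 5.08% and 6.68% in WT, from 117 to 143 counts a library in KO and 76 to 143 in WT.

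**Figure D5:**
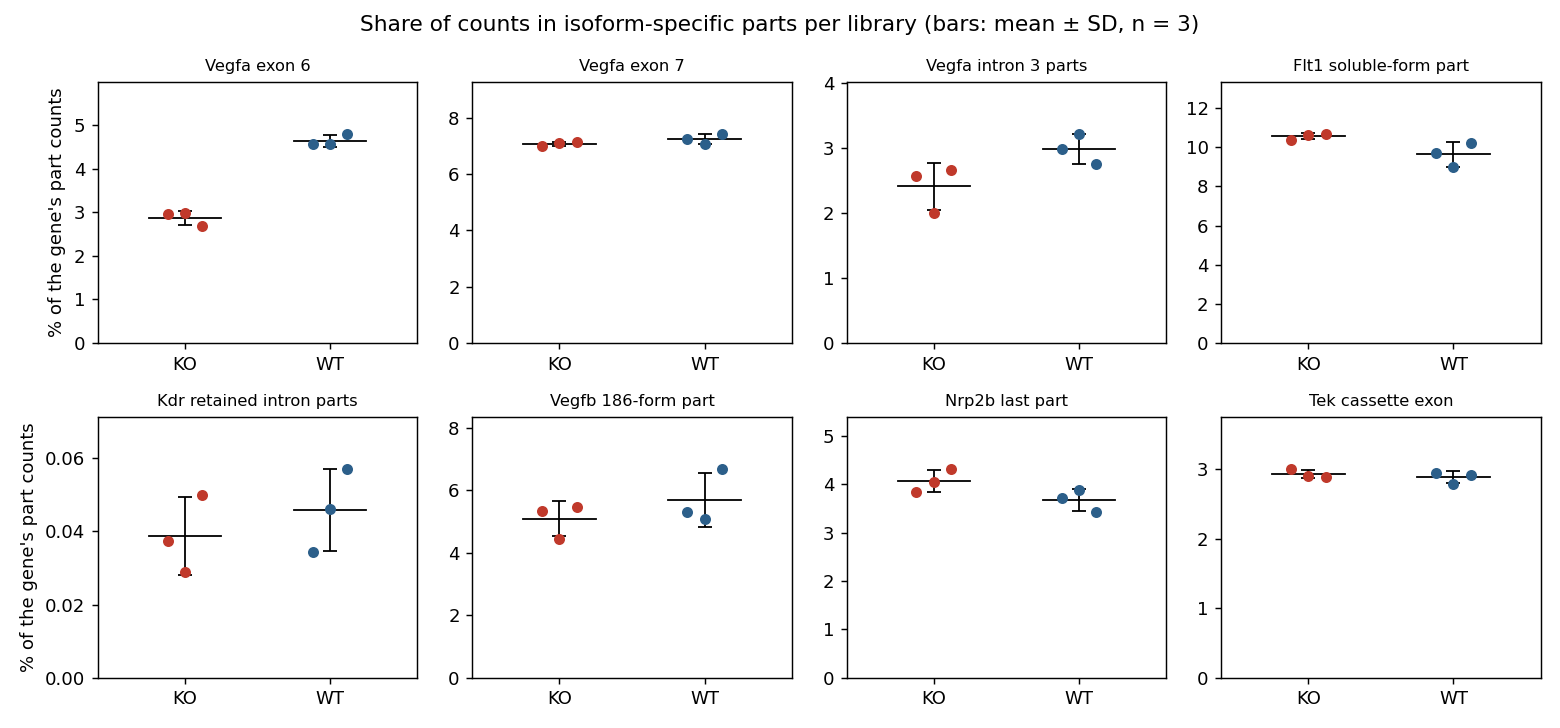
Share of the gene's part counts (vertical axes, percent, each from 0) in isoform-specific parts of Vegfa, Flt1, Kdr, Vegfb, Nrp2 and Tek in each KO library (red, left) and WT library (blue, right); bars give mean ± SD, n = 3. Vegfa exon 6 lies at 2.68% to 2.98% in KO and at 4.56% to 4.79% in WT, and exon 7 overlaps.

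Other ligands, receptors and partners of the systems were followed as a list of 18 genes, of which 1 passed as higher and 1 as lower in KO, with a median log2 fold change of -0.02 against 0.01 over all genes. Of all tested genes 3.37% passed in either direction. Svep1, which encodes a large matrix protein known from lymphatic development, rose to 106, 115 and 149 CPM in KO, against 76.3, 71.5 and 54.3 CPM in WT (log2 fold change 0.87, edgeR adjusted p = 0.0497). Plxna2, a semaphorin receptor gene, fell to 106, 99.5 and 104 CPM in KO, against 123, 144 and 145 CPM in WT (log2 fold change -0.42, edgeR adjusted p = 0.0429). Plxna4, another semaphorin receptor gene, had a log2 fold change of -0.34 and did not pass (edgeR adjusted p = 0.0580). Svep1 and Plxna2 passed in none of the 6 fits that left out 1 library. With the longest exonic part alone as its count, Plxna2 had a log2 fold change of 0.05 (edgeR adjusted p = 0.948).

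Downstream signalling was followed in 35 genes, from phospholipase C and the PI3 kinase to the MAP kinases. The list also holds Pdk1, the gene of pyruvate dehydrogenase kinase 1, an enzyme of metabolism and not of this signalling. Pdk1 had a log2 fold change of 0.46 and did not pass (edgeR adjusted p = 0.309). None passed as higher and 1, Hspb1, as lower, and the median log2 fold change was -0.02. That count stands beside the 3.37% of all tested genes that passed in either direction. Hspb1, which encodes a small heat shock protein that acts on actin and is phosphorylated downstream of p38, fell to 62.5, 62.2 and 60.0 CPM in KO, against 100.4, 129 and 184 CPM in WT. The KO values lay close together and the WT values were spread (log2 fold change -1.16, SE 0.21; edgeR, adjusted p = 0.0437). Of the fits that left out 1 library only the one without WT3 passed (adjusted p = 0.0415). The protein kinase C gene Prkcb had a log2 fold change of 0.61 and the PI3 kinase gene Pik3ca of -0.19, and neither passed (edgeR adjusted p = 0.0661 and 0.0777).

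Genes that respond to VEGF in endothelial cells were followed in 17 genes, and none passed, while 16 of the 17 had a fitted log2 fold change below 0 and the median was -0.21, beside 49.1% of all tested genes with a fold change below 0. Some of these genes can move together within a library: Nr4a1 and Egr3 were both lowest in WT1, at 94.0 and 0.522 CPM. Others did not follow them there, such as Spry4, which was highest in WT1, at 80.6 CPM. The list was also chosen with earlier results known, so the count of signs is a description and not a test. Rcan1, a calcineurin inhibitor gene induced by VEGF, stood at 40.5, 39.5 and 46.4 CPM in KO, against 52.0, 51.6 and 50.9 CPM in WT (log2 fold change -0.29, edgeR adjusted p = 0.0808). Spry4, a feedback inhibitor gene of receptor tyrosine kinases, had -0.34 (edgeR adjusted p = 0.161), and the tip cell gene Esm1 -0.53 (edgeR adjusted p = 0.196). The endothelial markers, of which none passed, had a median of -0.08, with 15 of 18 fitted below 0. Those with the smallest p were the junction genes Esam and Cldn5 and the glomerular endothelial gene Ehd3, with log2 fold changes of -0.27, -0.37 and -0.28 (edgeR adjusted p = 0.0807, 0.119 and 0.108). At an unadjusted p under 0.05 there were 3 genes among the 17 response genes and 4 among the 18 endothelial markers, shares that do not exceed the 22.6% of all genes.

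Regulators of Vegfa transcription, mRNA stability and splicing were followed in 21 genes, with a median log2 fold change of -0.11. Egln3, which encodes a prolyl hydroxylase that marks hypoxia-inducible factors for decay, rose to 32.1, 24.9 and 31.0 CPM in KO, against 16.2, 15.4 and 14.2 CPM in WT (log2 fold change 0.94, SE 0.11, edgeR adjusted p = 0.0207). Egln3 was the only gene of the list that passed, beside 3.37% of all tested genes. It passed without KO2, KO3 or WT3 but not without KO1, WT1 or WT2 (edgeR adjusted p up to 0.103). The splicing kinase gene Clk1 had a log2 fold change of -0.31 and the splicing factor gene Hnrnpl of -0.28, and neither passed (edgeR adjusted p = 0.0901 and 0.111). The hypoxia-inducible factor genes Hif1a and Epas1 did not pass, at 0.12 and -0.07.

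Markers of cell types moved beside Vegfa to different degrees. For comparison, 1.62% of all tested genes passed as higher and 1.76% as lower in KO. Of the 20 podocyte markers 1 passed as lower, Nphs1, the slit diaphragm gene, at 2233, 1935 and 1873 CPM in KO, against 2879, 3032 and 2795 CPM in WT (log2 fold change -0.53, edgeR adjusted p = 0.0350). Synpo, the gene of the actin-associated protein synaptopodin, and the transcription factor gene Foxc2 had -0.46 and -0.38 without passing (edgeR adjusted p = 0.0712 and 0.0751), and the podocyte median was -0.18. Of the 20 markers 15 had a fitted fold change below 0 and 5 above it, among them the transcription factor gene Tcf21 at 0.37, with KO libraries at 206 to 235 CPM and WT libraries at 156 to 204 CPM, a value that did not pass (edgeR adjusted p = 0.130). Of the 13 myeloid markers 5 passed as higher, Lyz2, Ccr2, Spi1, Tyrobp and Ctss, with log2 fold changes of 0.76 to 1.42. All 13 were fitted above 0, with a median of 0.84. Of 14 proximal tubule markers 2 passed as higher, Slc22a12 (0.52) and Slc34a1 (0.57), while Cyp4b1, the third by p, had -0.19 and did not pass (edgeR adjusted p = 0.0788). In this list 13 were fitted above 0 and 1, Cyp4b1, below it, with a median of 0.55. Of 14 loop, distal tubule and collecting duct markers 1 passed as higher, Avpr2 (1.20), and Scnn1b and Calb1 had 2.17 and 1.85 without passing (edgeR adjusted p = 0.105 and 0.121). All 14 were fitted above 0, with a median of 1.63. Their summed level was 543, 1454 and 274 CPM in KO1, KO2 and KO3. In this sum KO3 lay inside the WT range of 185 to 343 CPM, so not all KO libraries shared the rise. None of 14 mesangial and smooth muscle markers passed, with Serpine2 at 0.21, Cspg4 at -0.17 and Pdgfra at 0.21 the first by p (edgeR adjusted p = 0.103, 0.114 and 0.290). Among them 4 were fitted above 0 and 10 below it, with a median of -0.12. The part of these cell types in the difference of Vegfa was not tested beyond the marker scalings given above. Of these called markers, only Lyz2, Ccr2, Slc22a12 and Slc34a1 passed in any fit that left out 1 library, in 5, 3, 1 and 1 of 6.

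The genes whose levels over the 6 libraries ran closest to Vegfa, among 9963 tested genes with a mean of at least 10 CPM, were Gm15441, Txnip, Palld, Nrep and C130021I20Rik. Likeness was the root mean square difference in log2(CPM + 0.1), each gene centred on its own mean, and it was 0.0602, 0.0619, 0.0728, 0.0872 and 0.0885 for these genes in that order. Txnip, which encodes a thioredoxin-interacting protein, stood at 1123, 912 and 1138 CPM in KO, against 1641, 1761 and 1708 CPM in WT. Gm15441 lies antisense to Txnip, and without strand information reads of the one cannot be told from reads of the other. Palld, the gene of the actin-binding protein palladin, stood at 137, 121 and 136 CPM in KO, against 214.0, 252 and 205 CPM in WT. These genes were picked because they follow Vegfa, so their difference between groups is a description.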

How the data were processed

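Counts of reads per exonic part were deposited by the authors for 6 libraries (3 KO, 3 WT), with covered bases, length and the covered fraction, which the authors computed as covered bases over length. Per the file headers the annotation is Ensembl 67 on NCBIM37, while TopHat 1.4.1 and the human build GRCh37 stand in the submitters' processing notes. Which tool counted the reads, and with which strand setting, is not given in the sources used here, and counts were treated as unstranded.

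Part counts were summed per gene, so a read spanning several parts enters more than once. The gene test was that of edgeR 4.0.16 under R 4.3.3 (TMM, filterByExpr, quasi-likelihood, adjusted p under 0.05), and parts with diffSpliceDGE in genes with at least 2 kept parts. Both were tested on simulated data with 200 changed features. Shares of 8 isoform-specific part sets were compared by exact permutation. Alternatives were RLE, other filters, DESeq2 1.42.0, limma-voom 3.58.1, other part sets, marker sums as library size, a replicate block and left-out libraries. Names, transcript classes and exon sequences were read by transcript identifier from GENCODE M21 (GRCm38); of 35981 single identifiers 31300 had a symbol. Between replicates the chi-square per gene was 75.9 to 219, far above sampling noise, so none was counted as a duplicate. Counting error is small at these depths. Covered fractions were not used in tests.

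The genes, lists and tests were chosen with earlier results of these data known. Named were all ligand and receptor genes, their lowest-p part and parts of alternative or soluble forms, called list genes and up to 3 with the smallest p, and the 5 genes nearest Vegfa. Hif1a, Epas1 and Tcf21, and the isoform parts of Vegfb, Nrp2 and Tek, were added after their values were seen. Angptl4, Vegfd, Plxna3, Podxl, Eng, Egfl7, Pdk1, Nr4a1 and Egr3 were also named outside the rule above.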

Additional observations from a re-analysis of the deposited data

How the results depend on the processing

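Vegfa kept its direction in all 18 alternatives, with log2 fold changes of -0.85 to -0.60 and adjusted p from 6.5e-09 to 0.125, and passed in 9 of them. It was the gene behind the count of 1 called ligand or receptor gene, which was 0 under the replicate block, endothelial scaling, without WT3 and KO3, and in the fits without 1 library (0 to 0). The count of genes passing moved to 82 (replicate block), 2766 (DESeq2), 424 (longest part alone), 299 (parts in every transcript), 354 (endothelial scaling), 98 (without WT3 and KO3) and 31 to 254 (without 1 library), and that of parts to 409 (limma-voom), 315 (gene total as offset) and 52 to 175 (without 1 library). Vegfa and Flt1 have no part in every transcript, so that setting gave no value for them. For Nrp1 it rests on 1 part of 80 bases, shared with the microRNA gene of the joint identifier, which held 0.642% to 0.748% of Nrp1 counts. Parts in every protein-coding transcript were added as a setting after the data were seen, and gave 513 genes. The causes of these shifts were not tested.

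Deviations of same-numbered libraries from their group means correlated at r = 0.11, -0.06 and 0.16, against -0.20 to 0.11 for the other pairs. With 3 libraries a group these values cannot decide whether the numbers pair the samples, and no label says that they do. With the replicate block Vegfa had an adjusted p of 0.0952, the 18-base exon 6 part 0.769 and the count of parts was 129.

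Signs of uncalled values reversed for Vegfc (0.31 without WT3 and KO3; -0.59 to 0.28 without 1 library), Angpt2 (-0.017 to 0.24), Flt1 (0.015, podocyte scaling), Kdr (0.11 and 0.024, podocyte and endothelial scaling), Nrp1 (-0.053 with parts in every transcript, -0.014 without WT3 and KO3, -0.054 to 0.074 without 1 library) and Tek (0.13, 0.040 and 0.023 under podocyte scaling, endothelial scaling and without WT3 and KO3; -0.15 to 0.071). For part usage they reversed for Vegfa exon 7 (0.051, limma-voom), Kdr intron 11 (-0.34 to 0.16) and Vegfc part 9 (0.013, limma-voom; -0.075 to 0.056), and the Tek cassette share difference ran from -0.0014 to 0.077 percentage points. Of the Vegfa exon 6 parts, the 18-base part passed in 4 of 10 alternatives and the 54-base part in 2. Depth limited mainly the isoform parts with few counts, such as that of Vegfb, with 117 to 143 counts in KO libraries and 76 to 143 in WT libraries, and the Kdr intron parts.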

Other observations

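Angptl4, the gene of a secreted lipase inhibitor that also acts on vessels, was singled out after its values were seen, since it had the most negative fitted log2 fold change in the list of other ligands and receptors. It stood at 40.8, 6.19 and 23.9 CPM in KO1, KO2 and KO3, against 58.0, 78.9 and 64.0 CPM in WT1, WT2 and WT3. All KO libraries lay below all WT libraries, and the KO libraries differed widely among themselves, with KO2 the lowest. The log2 fold change of -1.50 did not pass (edgeR adjusted p = 0.203). KO2 was also the lowest library in Vegfa and in the share of Vegfa counts in intron 3 parts, and the highest in summed distal tubule markers. KO3 lay inside the WT range of that marker sum, at 274 CPM against 185 to 343 CPM, and below every WT library in Vegfa. Vegfd, the gene of another lymphatic ligand, stood at 21.4, 32.2 and 29.7 CPM in KO, against 22.3, 17.8 and 15.1 CPM in WT, with a log2 fold change of 0.59 that did not pass (edgeR adjusted p = 0.149). Vegfd was not picked by its p. Plxna3 of the same list had a smaller edgeR p, with a log2 fold change of -0.52 that did not pass (edgeR adjusted p = 0.105).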
